A study of Mus musculus with 9 samples.

Results

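C1q-positive macrophages of the mouse knee joint were picked from single-cell counts by a rule on 5 genes: at least 2 counts of C1qa, C1qb and C1qc together in a cell, with S100a8 and S100a9 below 12% of the counts of that cell. The rule took 179 of 16751 cells, 17 of 4551 from 4 healthy mice and 162 of 12200 from 5 sick mice, and 122 of the 179 came from sick mouse 3. The cells were profiled by Seq-Well, in which each cell settles in a small well with a barcoded bead that takes up its polyadenylated RNA, and were prepared from the whole left knee joint of female 129/Sve mice aged 8 weeks. The sick mice (numbered 1, 3, 4, 5 and 6) had been sensitized to methylated bovine serum albumin (mBSA) and had then received it by injection into the left knee, and the healthy mice (1 to 4) had received 20 μL of buffered saline in that joint. All were sampled 1 week after the injection. Whether the healthy mice had been sensitized too is not stated in the sources used here, and each knee is 1 library of 1 mouse.

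C1q is the recognition protein of the classical complement pathway. It is built from the products of C1qa, C1qb and C1qc, binds antibody complexes and dying cells, and passes the signal to the proteases C1r and C1s. Unlike most complement proteins, which the liver makes, C1q is made mainly by tissue macrophages and some dendritic cells. In synovium, macrophages that carry it include long-lived resident cells, while monocytes that arrive from blood in arthritis are rich in S100a8 and S100a9 at first. Antigen-induced arthritis is a model in which immune complexes and T cells against the injected protein inflame 1 joint.

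The 3 C1q genes lie side by side on the minus strand of chromosome 4 (GRCm38, GENCODE M21): C1qb at chr4:136880129-136886187, C1qc at chr4:136889804-136893065 and C1qa at chr4:136895917-136898803. All 3 are protein-coding. Bases before the gene start are shown for the pair of them with an entry in the RefSeq promoter table (GRCm38.p6), because these genes define the cells. RefSeq starts differ from the GENCODE starts: they are base 136886200 for C1qb and base 136892914 for C1qc. Of the 250 bases before each RefSeq start, those that also lie before the GENCODE start are printed, which is all 250 for C1qb (chr4:136886201-136886450) and 99 for C1qc (chr4:136893066-136893164), since the other 151 lie inside C1qc as GENCODE has it. They are written 5′ to 3′ on the minus strand. Capitals mark the letters GAGGAA, a core of the sites of PU.1 (a myeloid transcription factor), searched on both strands.
C1qb: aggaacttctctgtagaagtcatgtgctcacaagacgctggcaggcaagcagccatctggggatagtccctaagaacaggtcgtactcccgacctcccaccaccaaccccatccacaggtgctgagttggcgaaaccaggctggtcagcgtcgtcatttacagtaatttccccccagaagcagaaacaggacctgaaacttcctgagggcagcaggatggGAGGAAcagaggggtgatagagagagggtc
C1qc: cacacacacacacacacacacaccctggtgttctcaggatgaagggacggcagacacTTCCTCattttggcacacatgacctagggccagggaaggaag
The match in C1qb begins 43 bases before the GENCODE start and the match in C1qc, on the other strand, 42 bases before it. Of all 32851 RefSeq windows of 250 bases 23.3% hold these letters on either strand, so the matches describe these windows and say nothing of binding.

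In the members C1qb gave 544 counts in 150 cells, C1qc 386 counts in 131 cells and C1qa 160 counts in 91 cells. All 3 genes had a count in 62 cells, every one of them from a sick mouse, and 48 cells owed their place to 1 gene alone. The members held 1090 of the 1598 C1q counts of all cells (68.2%). Median C1q counts per member were 2, 2.5, 2 and 2 in healthy mice 1 to 4 and 3, 4, 3, 6 and 3 in sick mice 1, 3, 4, 5 and 6. These values chose the cells and are not tested.

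The counts behind the members were few outside sick mouse 3: 1279 to 9028 per healthy mouse, 215469 in sick mouse 3 and 5903 to 26028 in each other sick mouse. Median counts per member ran from 639.5 to 1663.5 across mice, against 766 to 1009 in the other cells. Of 16743 barcodes 8 occurred in 2 or more libraries, none of them in a member. Transcripts of ribosomal RNA type took 2.54% to 6.26% of all counts in healthy mice and 0.982% to 2.35% in sick mice, so the groups stood apart in this measure. No sequencing batch is named for any mouse, so a batch that followed the groups cannot be told apart from them. No doublet caller was run here.

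**Figure D1:**
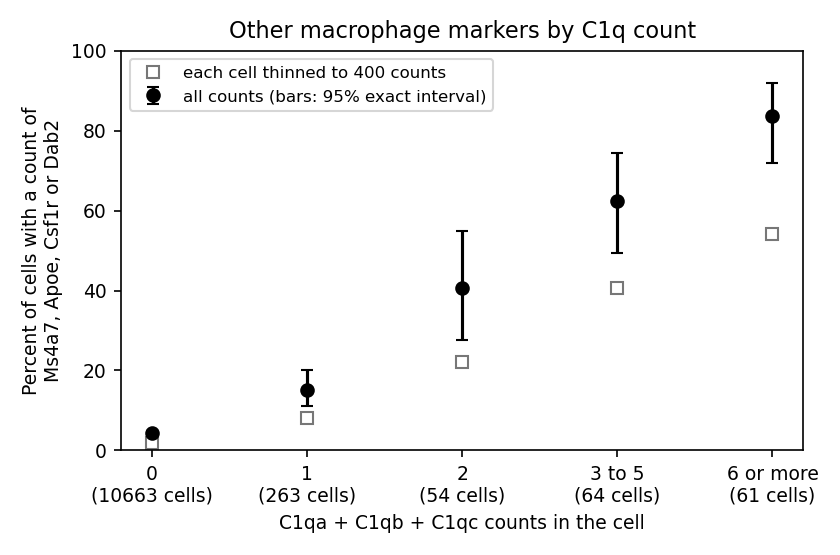
Percent of cells with a count of Ms4a7, Apoe, Csf1r or Dab2 (vertical axis) by the C1q counts of the cell (horizontal axis, number of cells below), for cells with S100a8 and S100a9 below 12%. Filled points with 95% exact intervals use all counts and open squares use 400 counts drawn per cell; both climb from cells without C1q to those with 6 or more counts.

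The label was checked on macrophage genes that the rule did not use. Cells with more C1q counts more often carried one of Ms4a7 (a membrane protein of macrophages), Apoe (a lipid carrier), Csf1r (the receptor of the growth factors CSF1 and IL-34) and Dab2 (an endocytic adaptor), as the plot of other markers by C1q count shows. Among cells below the S100 limit the share was 4.35% of 10663 cells without a C1q count, 15.2% of 263 with 1 count and 40.7% of 54 with 2 counts. It was 62.5% of 64 cells with 3 to 5 counts and 83.6% of 61 with 6 or more (exact 95% interval 71.9% to 91.8%, for counting error only). Deeper cells have a better chance of every gene, and with each cell thinned to 400 counts the shares were 1.73%, 7.98%, 22.2%, 40.6% and 54.1%. Members with 2 counts, just inside the rule, thus stood between the cells just outside it and the rest of the members. A further 29 cells had 2 or more C1q counts but S100a8 and S100a9 at 12% or more, and 58.6% of them carried one of the 4 genes.

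By mouse, members with one of the 4 genes were 1 of 4, 0 of 2, 4 of 6 and 1 of 5 for healthy mice 1 to 4. The numbers for sick mice 1, 3, 4, 5 and 6 were 8 of 11, 80 of 122, 8 of 12, 8 of 11 and 3 of 6. Apoe gave 0, 0, 3 and 1 counts in the healthy mice and 4, 183, 3, 17 and 11 in the sick. Ms4a7 gave 0, 0, 2 and 1 against 8, 135, 1, 2 and 3, and Dab2 1, 0, 1 and 0 against 2, 74, 7, 4 and 0. Csf1r gave no count in a healthy member and 1, 29, 2, 2 and 0 in sick members. So 107 of 162 members from sick mice carried a further macrophage marker, and 6 of 17 from healthy mice did. Most healthy members thus had no count of these 4 genes at this depth, and the members are called C1q-positive cells here. Other genes that macrophages hold were found in some of them, such as Ctsb in 2, 0, 5 and 1 and Cd74 in 4, 1, 3 and 3 members of healthy mice 1 to 4.

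Haemoglobin RNA, which red cells and their precursors hold, was part of many members. It took 10% or more of the counts in 1, 2, 5 and 5 members of healthy mice 1 to 4 (13 of 17) and in 3, 26, 5, 1 and 5 members of the sick mice (40 of 162). Members with that much haemoglobin had a median of 2 C1q counts and 49.1% carried one of the 4 other macrophage genes, against a median of 5 and 69.0% in the members with less. Cells with haemoglobin above 30%, a class assumed here to lack C1q and not cleared of members, were counted too. They reached 2 C1q counts at shares of 0.478%, 0.202%, 0.306% and 0.613% in healthy mice 1 to 4. Their median depth was 803 to 1520 counts. In sick mice 1, 3, 4, 5 and 6 these shares were 0.806%, 1.83%, 0.253%, 0.328% and 0.206%, at median depths of 1043.5 to 1357. In healthy mice 1 and 4 and sick mouse 1 the share of members, given next, lies below the haemoglobin-rich value of the same mouse. In healthy mice 1, 2 and 4 no cell outside the members reached 2 C1q counts. The haemoglobin-rich cells counted there are therefore members, so both shares hold the same cells. These values cannot say whether the members lie above a background. In healthy mouse 2 and sick mouse 6 the shares, 0.228% and 0.231%, were close to those of haemoglobin-rich cells. The latter rest on 1 of 495 and 2 of 969 cells. No excess over a background was shown in any of these mice.

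Markers of other cells were present in many members. Neutrophil markers (without S100a8 and S100a9) reached 3 counts in 155 members (86.6%), against 89.2% of the cells that were neither members nor monocytes as defined further on, and summed to 1169 to 18765 CPM (counts per 1000000 counts of the sum) in members of healthy mice and to 5929 to 19748 CPM in sick members. Classical monocyte markers reached 3 counts in 81 members (45.3%), with sums of 390 to 2346 CPM in healthy and 1355 to 4808 CPM in sick mice. By the same measure the 4 further macrophage genes reached 3 counts in 51 members (28.5%). Platelet markers, a list that shares Pf4 with the macrophage genes, did so in 25. At least 3 counts of the granulocyte progenitor genes Elane, Mpo, Prtn3, Ctsg and Ms4a3 were found in 25 members (14.0%), 19 of them in sick mouse 3, and their summed level ran from 0 to 1564 CPM in healthy mice and from 231 to 4363 in sick mice. At least 3 counts of fibroblast markers were found in 7 members, with sums of 0 to 129.9 CPM in healthy and 0 to 984 CPM in sick mice. Of 7 dendritic cell markers, Flt3, Zbtb46, Cd209a, Xcr1 and Clec9a had no count in any member and no member reached 3 counts. B cell markers reached 3 counts in 1 member. The part of these cells in the results below was not tested.

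**Figure D2:**
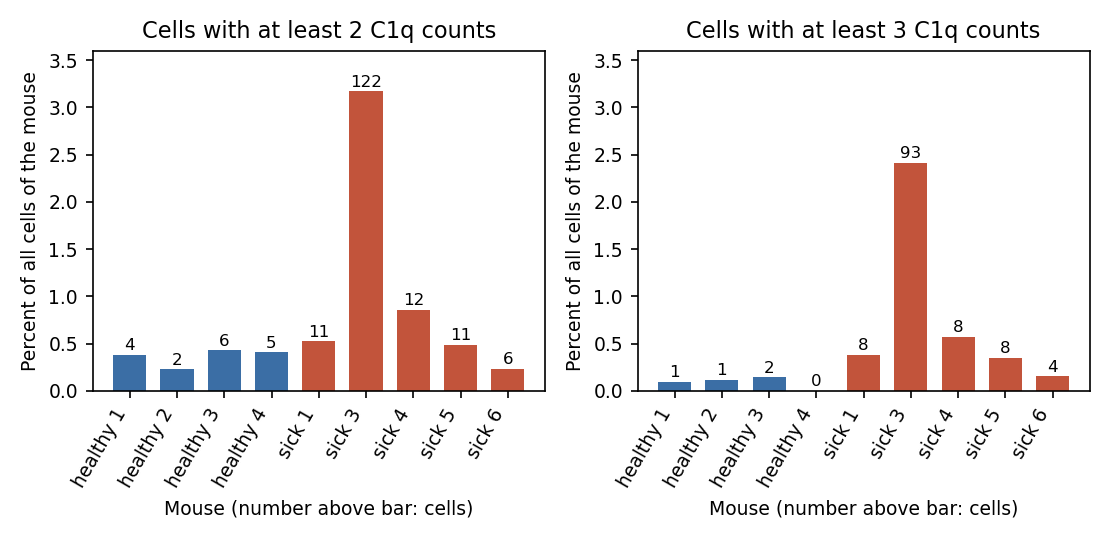
Percent of all cells of each mouse (vertical axis) that had at least 2 (left) or at least 3 (right) C1q counts with S100a8 and S100a9 below 12%, with the number of cells above each bar; healthy mice blue, sick mice red. With 2 counts sick mouse 6 lies within the healthy range, and with 3 counts all sick mice lie above all healthy mice.

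The share of C1q-positive cells was compared between sick and healthy joints over mice. It was 0.381%, 0.228%, 0.429% and 0.409% of the cells of healthy mice 1 to 4. In sick mice 1, 3, 4, 5 and 6 it was 0.525%, 3.17%, 0.859%, 0.485% and 0.231%. Sick mouse 3 was far above the others, 4 of 5 sick mice were above every healthy mouse, and sick mouse 6 lay among the healthy mice. The means were 0.362% ± 0.0911 (SD, n = 4) and 1.05% ± 1.20 (n = 5), a difference of 0.692 percentage points, and the exact two-sided permutation test gave p = 0.159 (smallest possible 0.0159). Without sick mouse 3 the difference was 0.164 points (exact permutation p = 0.286).

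The comparison depended on how many C1q counts a cell had to hold. With at least 3 counts, healthy mice 1 to 4 kept 1, 1, 2 and 0 cells and the sick mice 8, 93, 8, 8 and 4. All 5 sick mice, at 0.154% to 2.42%, were then above all healthy mice, at 0% to 0.143% (difference 0.688 points, exact permutation p = 0.0159, the smallest it can give). Sick mouse 6 (4 cells, 0.154%) and healthy mouse 3 (2 cells, 0.143%) were close, so 1 cell decides that separation. With each cell thinned to 400 counts the sick mice were also all above the healthy ones, at 0.191% to 1.61% against 0.0818% to 0.190% (exact permutation p = 0.0159). That was 1 random draw, in which healthy mice 1 to 4 kept 2, 1, 2 and 1 cells and the sick mice 4, 62, 8, 5 and 5. Sick mouse 1 (0.1910%) and healthy mouse 1 (0.1903%) were nearly equal, so 1 cell decides this separation. With 1 count as the rule the exact permutation p was 0.444. A whole joint gives shares of captured cells, so more C1q-positive cells and fewer other cells cannot be told apart.

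What sets the C1q-positive cells apart from monocytes of the same joints was asked next. The comparison cells (the monocyte gate) had no C1q count, S100a8 and S100a9 below 12%, no Siglech count, and at least 3 counts over at least 2 of Ly6c2, Ccr2, F13a1 and Vcan. Counts were summed per mouse in sick mice 1, 3, 4 and 5, which had at least 10 cells of both kinds (156 C1q-positive and 823 monocyte cells), and compared with the mouse as a block by the edgeR quasi-likelihood test at a false discovery rate of 0.05. The genes of both rules were left out of the test. Of 3074 genes tested 97 were higher and 36 lower in C1q-positive cells, 133 in all (4.33%; 3.16% higher and 1.17% lower). DESeq2 on the same sums called 65 higher and 5 lower. Without sick mouse 3 the calls were 44 and 16 of 1284 genes, so that mouse carries much of the count, and with the same number of cells drawn from each mouse they were 17 and 0 of 401.

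**Figure D3:**
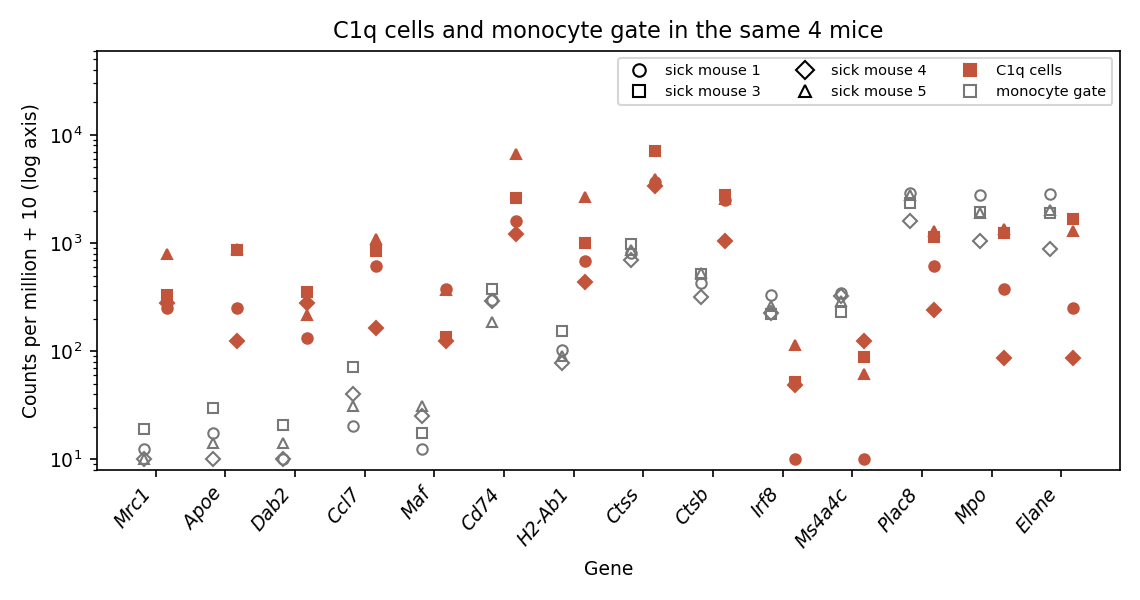
Level of 14 genes (CPM + 10, log axis) in C1q-positive cells (red, filled) and in the monocyte gate (grey, open) of sick mice 1, 3, 4 and 5, each mouse with its own symbol. From Mrc1 to Ctsb the red points lie above the grey points of the same mouse, and from Irf8 to Elane below them.

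Genes of resident and scavenging macrophages were among the largest differences. Mrc1, the mannose receptor CD206, stood at 244, 320, 269 and 775 CPM in C1q-positive cells of sick mice 1, 3, 4 and 5 and at 2.56, 9.13, 0 and 0 CPM in monocytes. It was higher in 4 of 4 mice, by 6.23 ± 0.59 on the log2 scale (SE, edgeR adjusted p = 3.66e-23), and also without sick mouse 3 (7.73). Folr2, a folate receptor of resident macrophages, gave 2, 29, 2 and 3 counts in C1q-positive cells and none in 823 monocytes, which makes it at least 61.3-fold higher with a floor of 3 counts for all these monocytes together. Gas6, a ligand that bridges dying cells to phagocytes, gave 3, 15, 6 and 2 counts against none, at least 44.2-fold. The 27 Gas6 counts of all members lay in 11 cells, up to 10 of them in 1 cell. Both genes were called by edgeR (adjusted p = 7.10e-18 and 1.15e-17), and both fell under the low-count filter without sick mouse 3.

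Of the general macrophage list 14 genes were tested and 10 were higher (Mrc1, Pf4, Maf, Lgmn, Selenop, Aif1, Cd68, Cd63 and Grn among them), none was lower, and the median difference was 2.14 on the log2 scale against -0.12 over all genes tested. Selenop, a selenium carrier, stood at 548, 617, 692 and 517 CPM against 118, 91.3, 91.6 and 89.0 CPM in monocytes, close together over the mice in both. Its log2 difference was 2.75 ± 0.35 (edgeR adjusted p = 3.96e-13). Maf, a transcription factor of mature macrophages, was higher by 4.44 ± 0.55. Cd68 had no count in C1q-positive cells of sick mouse 1 and was not called by DESeq2 (adjusted p = 0.0754). Of the 4 markers used to check the label, Apoe (244, 849, 115 and 879 CPM against 7.67, 19.8, 0 and 4.24) and Dab2 (122, 343, 269 and 207 against 0, 10.7, 0 and 4.24) were higher, by 5.84 ± 0.50 and 5.57 ± 0.65. Csf1r was tested and not called (0.79 ± 0.53, edgeR adjusted p = 0.585). Ms4a7 did not pass the low-count filter; it gave 146 counts in C1q-positive cells and 11 in monocytes of these mice.

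The antigen presentation genes of MHC class II that were called were all higher, and Cd74 was higher in each of the 4 mice. The invariant chain Cd74 stood at 1583, 2576, 1191 and 6617 CPM in C1q-positive cells and at 289, 370, 283 and 178 CPM in monocytes, so the lowest of the former was above the highest of the latter. H2-Aa, H2-Ab1 and H2-Eb1, which code for the chains that hold the peptide, were higher by 3.46 ± 0.33, 3.47 ± 0.33 and 3.81 ± 0.36. Without sick mouse 3 they were higher by 3.99, 3.89 and 4.20. Cd74, H2-Aa and H2-Ab1 were also called with the same number of cells per mouse (edgeR adjusted p = 0.00136, 0.00127 and 0.00136). Of 8 class II genes tested 5 were higher (the others of these are Cd74 and Ctss) and none lower, with a median of 2.88. Class I genes differed less: H2-D1 and H2-K1 of 9 tested were higher, by 1.28 ± 0.29 and 1.21 ± 0.30.

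Lysosomal proteases and their partners followed. Ctss, a cathepsin that trims the invariant chain, stood at 3653, 7124, 3343 and 3877 CPM against 795, 981, 687 and 856 CPM. It was higher by 2.50 ± 0.30 (edgeR adjusted p = 3.28e-14) and by 2.45 without sick mouse 3. Ctsb was higher by 2.41 ± 0.29, Ctsd by 2.72 ± 0.36, Ctsl by 2.59 ± 0.37 and Lgmn (legumain) by 4.23 ± 0.55. Of 21 genes of the list 8 were higher and none lower, with a median of 1.21. Of the lipid-associated macrophage list 5 of 9 were higher: Lpl (a lipase), Pltp (a lipid transfer protein), Spp1 (osteopontin), Ctsd and Cd9. Spp1 stood at 183, 1485, 192 and 672 CPM against 20.4, 170.4, 30.5 and 144.1 in monocytes, and was highest in sick mouse 3 in both cell kinds.

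**Figure D4:**
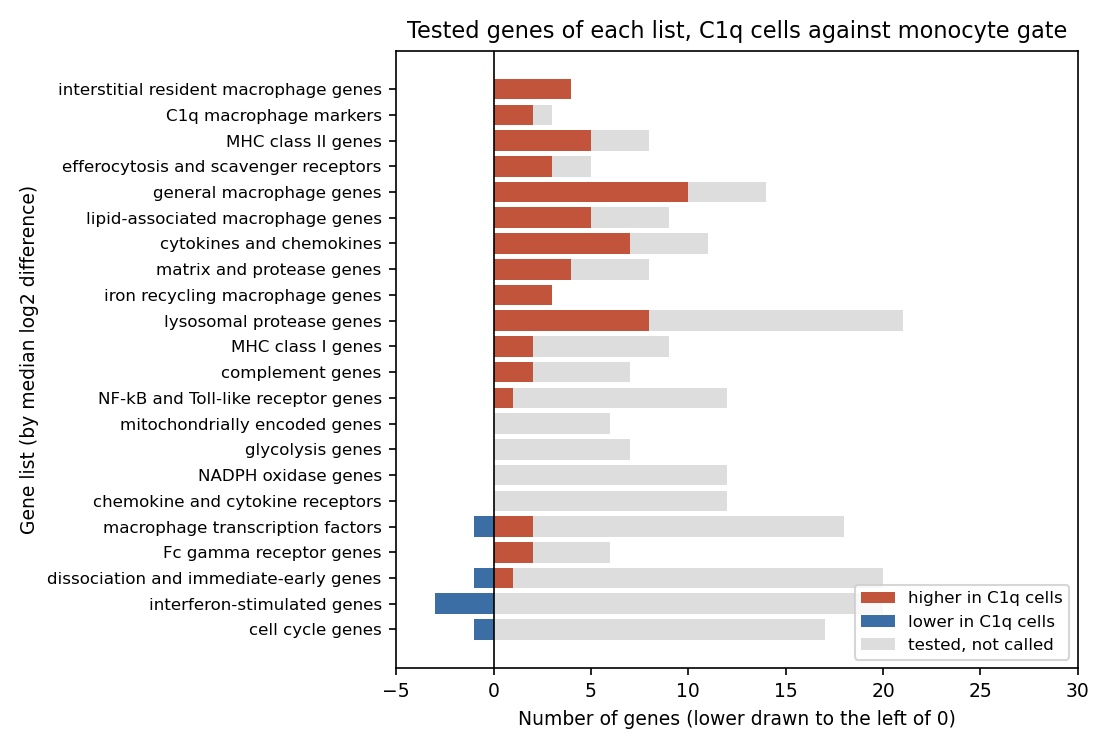
Number of tested genes (horizontal axis) of each gene list with at least 3 tested genes that were higher (red), lower (blue, drawn to the left of 0) or not called (grey) in C1q-positive cells against the monocyte gate. Macrophage, MHC class II, lysosomal and chemokine lists hold most red genes, and the interferon-stimulated list holds 3 of the blue ones.

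Of 11 cytokine and chemokine genes tested, 7 were higher (Pf4, Ccl7, Cxcl12, Spp1, Cxcl2, Ccl2 and Ccl6) and none lower. Ccl7, which draws monocytes through CCR2, stood at 609, 840, 154 and 1086 CPM against 10.2, 60.9, 30.5 and 21.2 CPM, a log2 difference of 4.51 ± 0.40 (edgeR adjusted p = 6.61e-26). Ccl2, of the same family, stood at 974, 849, 499 and 414 CPM against 302, 243, 260 and 80.5 CPM, a difference of 1.81 ± 0.32. Outside sick mouse 3 both rested on few cells: Ccl7 was found in 1, 53, 2 and 5 members of sick mice 1, 3, 4 and 5 and Ccl2 in 2, 44, 5 and 2. Cxcl12 rested on few cells: its counts were 0, 52, 13 and 2, in 7 members in all, with up to 47 counts in 1 cell. The same held for Ibsp, a bone matrix gene that was higher by 5.76 ± 0.68: its 61 counts lay in 6 members, 34 of them in 1. Beside it, osteoblast markers (a list that holds genes which macrophages also make) reached 3 counts in 38 members, and their summed level ran from 0 CPM in healthy mice to 2121 CPM in sick mouse 3. None of 12 chemokine and cytokine receptor genes tested was called.

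Within complement, 7 genes other than C1q were tested and 2 were higher, C3ar1 among them. C3ar1, the receptor of the C3a fragment, stood at 60.9, 251, 307 and 258 CPM against 0, 3.04, 0 and 8.48 CPM. Its difference was 6.06 ± 0.65 on the log2 scale (edgeR adjusted p = 7.10e-18), on 4 monocyte counts. C3 itself was not called (-0.76 ± 0.45). Of 6 Fc gamma receptor genes tested Fcgr2b, the inhibitory receptor for antibody complexes, was higher by 2.52 ± 0.49. Fcgr3, an activating one, was higher by 1.51 ± 0.43 in the fit, yet its CPM was higher in 2 mice and lower in the other 2.

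Among the genes lower in C1q-positive cells were genes of monocytes and of granulocyte progenitors. Irf8, a transcription factor of monocytes and dendritic cells, gave 0, 9, 1 and 2 counts against 127, 140, 28 and 60 in monocytes. It was lower in 4 of 4 mice, by -2.19 ± 0.51 (edgeR adjusted p = 0.00106; 0.0906 without sick mouse 3). Plac8 stood at 609, 1137, 231 and 1292.5 CPM against 2890, 2346, 1596 and 2750 CPM, a difference of -1.50 ± 0.31. Ms4a4c was lower by -1.65 ± 0.45. Mpo, Elane and Prtn3, granule genes of progenitors, were lower by -1.33 ± 0.31, -1.25 ± 0.32 and -1.31 ± 0.34. DESeq2 called Irf8 and Plac8 (adjusted p = 0.0323 and 0.00440). It did not call Ms4a4c, Mpo, Elane or Prtn3 (DESeq2 adjusted p = 0.107, 0.0885, 0.170 and 0.142). Progenitor markers reached 3 counts in 39.8% of monocyte cells and 14.0% of members, and the falls were larger in sick mice 1 and 4 than in sick mice 3 and 5. Elane, for example, stood at 244, 1671, 76.8 and 1292.5 CPM against 2857, 1875, 870 and 2017 CPM. In a fit to sick mice 3 and 5 alone, added after seeing the data, Mpo, Elane and Prtn3 were not called (edgeR adjusted p = 0.680, 0.857 and 0.740).

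The further genes with the largest falls were Mb21d1 (the DNA sensor cGAS), Hells (a chromatin remodeller), Itga1, Plk4 (a centriole kinase), Topors, Pds5b, I830127L07Rik, Ifi204 and Kif15 (a mitotic motor), at log2 differences from -2.85 to -1.74. Most of them rested on 0 to 4 counts in the C1q-positive cells of each mouse. Hells, for example, gave 0, 4, 0 and 0 counts against 64, 70, 11 and 27. Of these genes DESeq2 called I830127L07Rik (adjusted p = 0.0301) and none of the others. The DESeq2 adjusted p was 0.215, 0.0598, 0.144 and 0.152 for Mb21d1, Hells, Itga1 and Plk4. It was 0.217, 0.152, 0.131 and 0.183 for Topors, Pds5b, Ifi204 and Kif15. Of 18 cell cycle genes tested only Top2a was lower, by -1.08 ± 0.32. It was not called by DESeq2 (adjusted p = 0.397), nor by edgeR without sick mouse 3 (-0.46, adjusted p = 0.674). All 18 had values below 0 (median -0.50), while 1259 of all 3074 genes tested had values above 0 (median -0.12). Of 23 interferon-stimulated genes tested Ifi204, Ms4a4c and Sp100 were lower and none was higher. DESeq2 called none of these 3 (adjusted p = 0.131, 0.107 and 0.183). The dissociation and immediate-early list, which tissue digestion can raise, had 1 higher (Dusp1) and 1 lower (Hsp90aa1) of 21.

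Red cell and neutrophil genes moved with the comparison too. Slc4a1 (band 3 of red cells) and Car2 were higher by 1.40 ± 0.37 and 1.03 ± 0.29, and the neutrophil gene Lcn2 by 1.27 ± 0.33 in the fit. Lcn2 stood at 244, 330, 3957 and 775 CPM against 302, 441, 305 and 309 CPM, so it was higher in 2 mice, mainly sick mouse 4, and lower in the other 2. Slc4a1 stood at 974, 176, 576 and 103 CPM against 71.6, 172, 298 and 67.8 CPM. With haemoglobin-rich cells left out only sick mice 3 and 5 kept enough cells, and none of these 3 was called (edgeR adjusted p = 0.990, 0.744 and 0.856). None was called in the same mice with all their cells either (edgeR adjusted p = 0.925, 0.912 and 0.893), so the calls were lost with the mice, and the part of haemoglobin-rich cells cannot be told apart from that. Without those cells 118 genes were higher and 31 lower, and in the same mice with all cells 180 and 32, with Mrc1, Apoe, Cd74, Ctss and Ccl7 among the higher in both. The list of iron-recycling macrophage genes had 3 tested, all higher: Fth1, Ftl1 and Blvrb. In sick mice 3 and 5, Blvrb, which red cell precursors hold too, was not called without haemoglobin-rich cells (edgeR adjusted p = 0.0645) nor with them (0.202), and Fth1 was called without (0.0242) but not with them (0.165).

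Whether gene levels inside the C1q-positive cells differ between sick and healthy joints could not be tested as planned, since no healthy mouse had 10 such cells, and values are given without a test. The 17 healthy members gave 21816 counts, so a gene without a count there has a floor of 137.5 CPM (3 counts over the group). Haemoglobin genes took 23.5% to 50.7% of the counts of healthy members and 6.76% to 34.8% in sick mice, and its part in the levels of other genes was not tested. The genes described from here on were chosen after their values were seen, other than those of the monocyte test and the summed lists.

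**Figure D5:**
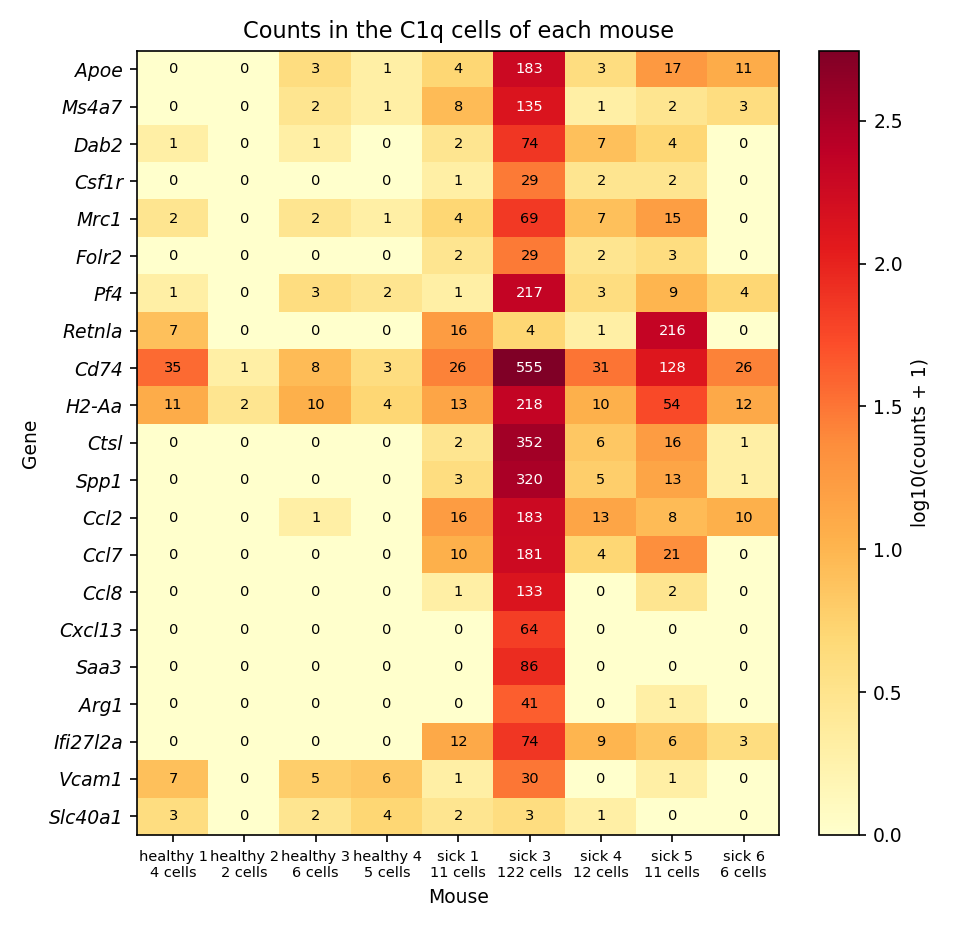
Counts of 21 genes (rows) in the C1q-positive cells of each mouse (columns, number of cells below), coloured by log10(counts + 1). Sick mouse 3, with 122 cells, holds most counts of most genes; Retnla is highest in sick mouse 5, and all 4 healthy mice have counts of Cd74 and 3 of them (all but mouse 2) of Vcam1 and Slc40a1, while none has a count of Ctsl or Spp1.

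Fn1 (fibronectin), Ctsl, Spp1, Ccl7 and the interferon-stimulated gene Ifi27l2a had no count in a healthy member. In sick mice 1, 3, 4, 5 and 6 Fn1 gave 13, 222, 16, 14 and 0 counts and Ccl7 gave 10, 181, 4, 21 and 0. Ifi27l2a gave 12, 74, 9, 6 and 3 counts, in 63 members and in all 5 sick mice. Over the sick group these levels were at least 6.81-fold (Fn1), 5.55-fold (Ccl7) and 2.67-fold (Ifi27l2a) higher than the healthy floor, and at least 4.62-, 3.76- and 3.22-fold without sick mouse 3. Spp1 and Ctsl were at least 8.78- and 9.68-fold higher, but 2.36- and 2.69-fold without sick mouse 3.

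In the other direction stood Vcam1, an adhesion molecule, and Slc40a1, the iron exporter ferroportin. Vcam1 gave 7, 0, 5 and 6 counts in healthy mice 1 to 4 and 1, 30, 0, 1 and 0 in the sick mice, which is 825 CPM against 113 CPM over each group. Slc40a1 gave 3, 0, 2 and 4 counts against 2, 3, 1, 0 and 0 (413 against 21.2 CPM). Without sick mouse 3 the sick levels were 29.5 CPM for Vcam1, on 2 counts, and 44.3 CPM for Slc40a1, on 3 counts. Vcam1 was found in 6 of 17 healthy members, 5 of which had 10% or more haemoglobin, and in 17 of 162 sick members, 7 of which had that much. The resident macrophage gene Timd4 had no count in any member, and Lyve1, Vsig4, Cd163 and Spic were found in 4, 5, 5 and 6 members.

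Gene lists could be set side by side only as summed levels per mouse. Interferon-stimulated genes summed to 1574, 1564, 1329 and 260 CPM in members of healthy mice 1 to 4 and to 4688, 3509, 3035, 5532 and 2202 CPM in sick members, with no overlap, on 6, 2, 12 and 2 counts in the healthy mice. In the monocyte gate they summed to 1578 to 2316 CPM in healthy and 4526 to 6208 CPM in sick mice. MHC class I genes summed to 2346 to 3411 CPM in healthy members and 4226 to 10443 CPM in sick members. Chemokine and cytokine receptor genes did not overlap either, at 0 to 1574 CPM in healthy and 2033 to 3044 CPM in sick members. All other lists overlapped, so a lack of overlap was not particular to interferon-stimulated genes. MHC class II genes overlapped: 23616, 3127, 3877 and 1169 CPM in healthy members against 7184, 12939, 5801, 19800 and 14230 CPM in sick members, the highest being healthy mouse 1. NADPH oxidase genes overlapped as well, at 8600 to 13640 and 9771 to 15077 CPM.

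The monocyte gate had enough cells for the test in all 9 mice, and there 11 of 3532 genes were higher in sick mice (0.311%) and none lower, by edgeR (406 at an unadjusted p under 0.05; DESeq2 called 12 higher and 3 lower). In monocytes of healthy mice Ifi27l2a stood at 55.5 ± 28.2 CPM (SD, n = 4), and in those of sick mice at 645 ± 139.9 CPM (n = 5). Ifi44, Isg15, Xaf1 and Bst2 were among the other genes that rose, at log2 differences of 5.47, 2.78, 2.14 and 2.13. In C1q-positive cells Isg15 gave no count in healthy mice and 6, 15, 1, 2 and 1 in sick mice. With the 2 healthy mice that had at least 5 C1q-positive cells, edgeR tested 200 genes against the 5 sick mice and called none (40 at an unadjusted p under 0.05; DESeq2 called 1 higher and 1 lower). The difference between the effects in both cell kinds was tested for 2055 genes in these mice, and 1, Ahnak, was called (edgeR adjusted p = 0.0440).

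Members also differed among themselves, which is described without a test. Sick mouse 3, with most of the member counts, held most or all counts of some genes. The chemokine gene Ccl8 gave 133 counts there in 24 cells and 1, 0, 2 and 0 in sick mice 1, 4, 5 and 6. Saa3 (an acute-phase protein) gave 86 counts in 20 cells of that mouse, Cxcl13 (which draws B cells) 64 counts in 8 cells, and neither had a count in any other member. Arg1 (arginase 1) gave 41 counts in sick mouse 3 and 1 in sick mouse 5. The depth of the other mice sets a limit: the floor of 3 counts was 115 to 508 CPM in the members of each other sick mouse, while Saa3 stood at 399 and Cxcl13 at 297 CPM in sick mouse 3.

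Sick mouse 5 differed in another gene. Retnla, a secreted protein of alternatively activated macrophages, gave 216 counts in 5 of its 11 members, up to 85 in 1 cell, against 16, 4, 1 and 0 counts in sick mice 1, 3, 4 and 6. In healthy members it gave 7 counts, all in 1 cell of mouse 1. The summed level of the interstitial resident macrophage list, which holds Retnla, was 13183 CPM in sick mouse 5 and 1508 to 3288 CPM in the other sick mice. Sick mouse 1 held 5 of 9 Lyve1 counts, 7 of 11 Cd163 counts and 9 of 26 Cx3cr1 counts.

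MHC class II content varied widely from cell to cell. The sum of H2-Aa, H2-Ab1, H2-Eb1 and Cd74 ran from 0 (36 members) to 74 counts, with a median of 4, against a median of 0 in monocytes. Among the members with less than 10% haemoglobin, 36 had at least 1% of their counts in these 4 genes: 3 of 3 in healthy mouse 1, 2 of 8 in sick mouse 1, 22 of 96 in sick mouse 3, 1 of 7 in sick mouse 4, 7 of 10 in sick mouse 5 and 1 of 1 in sick mouse 6. This division was chosen after the values were seen. Within sick mouse 3 the 22 cells with high class II levels had no count of Ccl8, Arg1 or Abca1 (a cholesterol exporter), where 3 counts would be 127 CPM. In the other 74 cells of that mouse these genes stood at 842, 247 and 207 CPM.

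The same 22 cells had more of Mrc1 (804 against 274 CPM), Clec7a (the glucan receptor dectin-1, 2286 against 628 CPM), Cxcl2 (1355 against 528 CPM) and Il1b (1058 against 221 CPM). They had less of Spp1 (720 against 1738 CPM), Ctsl (762 against 2038 CPM), Apoe (169 against 1076 CPM) and of the progenitor gene Elane (381 against 2052 CPM). C1qb was similar in both, at 2582 and 2132 CPM, as was Ccl2 at 974 and 976 CPM. The median depth was 1034 counts per cell in the 22 and 1539.5 in the 74. All these cells come from 1 mouse, so the values compare cells of that joint. The Apoe value of the 22 cells rests on 4 counts in 1 cell. Over all mice Apoe gave 22 counts in 8 of the 36 cells with high class II levels and 165 in the other 90. Of these, 4 and 161 came from sick mouse 3, so the other mice together did not share the lower Apoe level. Spp1 gave 23 and 270 counts over all mice, 17 and 260 of them in sick mouse 3, too few elsewhere to compare.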

How the data were processed

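The deposited table holds raw counts of 24296 genes in 16751 cells, whole and not negative for every value; the cells were selected by the authors before deposit, by steps not given in the sources used here. Per the labels' protocols, reads of several sequencing rounds were merged and processed with bcl2fastq, Picard, STAR and the Drop-seq Core Computational Protocol 1.0.1. The labels name a human build in 1 place and the submitters' processing notes name GRCm38 and mm9; the symbols are mouse symbols, and positions were taken by symbol from GENCODE M21 on GRCm38. The members, gene lists, markers and tests were chosen with earlier results of these data known.

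Cells entered the C1q gate and the monocyte gate by counts of named genes, and counts were summed per mouse, which is the replicate. CPM are counts per 1000000 counts of a sum. Shares were compared by an exact two-sided permutation test over mice. Sums were compared with the quasi-likelihood test of edgeR 4.0.16 in R 4.3.3 (TMM factors, filterByExpr) over all genes passing the filter, with Benjamini-Hochberg adjustment, leaving out the genes of the gates. In the comparison of gates the mouse was a block. A mouse needed 10 cells per gate. Named are the 10 called genes with the largest rise and fall (5 for monocytes) at 50 CPM or more in the higher group with the same direction in every mouse (for sick minus healthy, no overlap of the groups), the markers, and up to 4 genes per list by level and by p; other genes were picked after their values were seen. Some genes that this rule names are not reported here. Of 24 lists, those that no sentence describes are in the plot of tested genes of each list or had fewer than 3 genes tested. Exact binomial intervals (95%) and floors of 3 counts cover counting error only.

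Numbers 1, 3 and 4 are shared by healthy and sick mice, but the labels do not say that they pair them, and same-numbered monocyte sums did not deviate together (correlations 0.032, -0.031 and -0.0076). Alternatives were DESeq2 1.42.0, other size factors, no filter, other limits of the gates, other cell minimums and each mouse left out. The edgeR steps were tested on simulated data with known changes, at a spread chosen for the simulation. For the comparison of gates they recovered 6% of 2-fold and 31% of 4-fold changes. For sick against healthy monocytes they recovered 8% and 47%. A gene that was not called may therefore still differ. Python 3.11.15, numpy 2.4.6, scipy 1.17.1 and pandas 2.3.3 were used.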

Additional observations from a re-analysis of the deposited data

Results flagged for a closer look

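Sick mouse 3 lay far from the other 4 sick mice in the share of cells that were C1q-positive (3.17%) and in their number (122 cells). Among cells with S100a8 and S100a9 above 20% of their counts, healthy mouse 1 had 3.25 C1q counts per 1000000 counts while the other 3 healthy mice had none. That is 1 count in 286 cells, against none in 43, 32 and 38 cells, so the value rests on 1 count at a higher number of cells. For Pds5b the log2 ratio of C1q-positive cells to monocytes (CPM + 10) was -1.78 in sick mouse 3 and lay apart from the other 3 mice of that comparison. Of 32 groups examined for a value far from the rest 4 held one. The limit used is set so that chance gives about 1 in 20 for values with a normal spread, and that rate was not measured here.

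Outside the comparisons, 28 cells of sick mice had 2 or more C1q counts but S100a8 and S100a9 at 12% or more of their counts, against 1 cell in healthy mice.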

How the results depend on the processing

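The higher mean share of C1q-positive cells in sick mice (0.692 points) kept its direction under all alternatives run. The exact permutation test passed with 3 or more C1q counts (0.688 points) and with cells thinned to 400 counts (0.425 points, 1 random draw). It also passed, both chosen after seeing the data, with a further marker required (0.585 points) or 6 or more C1q counts (0.376 points). With each mouse left out the difference ran from 0.164 (without sick mouse 3) to 0.898 points (without sick mouse 6, exact permutation p = 0.0286). Against monocytes, genes higher (97) became 48 with at least 5 cells per mouse, 17 with equal numbers of cells, and 44 to 128 with each mouse left out. Genes lower (36) became 5 by DESeq2, 17 without the filter and 8 with S100 genes below 5%. That S100 limit left sick mice 3 and 4 only, since sick mice 1 and 5 kept 9 and 8 C1q-positive cells. Genes lower became 0 with equal numbers of cells (68 of 401 genes at an unadjusted p under 0.05) and 16 to 27 with each mouse left out. With 3 or more C1q counts and at least 5 cells, chosen after seeing the data, they were 110 and 37. Of the 133 genes called, 70 were also called by DESeq2, 132 with RLE size factors, 48 of 82 tested without sick mouse 3 88 of 130 tested without haemoglobin-rich cells (sick mice 3 and 5 only) and 83 in the same mice with all cells, a fit added after seeing the data in which 180 genes were higher. In monocytes the 11 genes became 82 without the filter, 2 to 26 with each mouse left out and 5 with the replicate block. For sick against healthy C1q-positive cells with at least 5 cells per mouse, the replicate block gave 12 calls and DESeq2 2 (both chosen after seeing the data), and the difference of effects gave 1. The cause of these changes was not tested, except that fewer genes were tested with fewer cells. For C1q-positive cells the minimum of 20 cells, 3 or more C1q counts with 10 cells, and further alternatives for sick against healthy were not run, since too few mice had the cells. Depth is one limit of the healthy values: 17 cells and 21816 counts.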
